A study of Oncorhynchus mykiss with 7 samples.

Results

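The 200 transcripts described here were those that differed most from fish to fish among rainbow trout eating the same feed. RNA of the proximal intestine had been measured on 7 one-colour Agilent arrays, 1 juvenile fish per array. The 3 control fish ate a feed with 300 g of soy protein concentrate per kg, while each kg eaten by the 4 insect fish held 400 g of meal from black soldier fly, replacing the soy protein, and 3 g of the binder guar gum. All 7 fish were of the Störk strain and came from the tanks named A of a trial of 69 days, stocked with 55 fish each, and were fasted for a day before sampling. The stock is described as all-female, while the sex of each sample is listed as unknown. Tank, insect meal and guar gum go together and cannot be told apart. A difference between 2 fish holds everything in which these fish, their RNA samples or their arrays differed.

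The members were chosen by measured values. Of 49255 different probes, 18016 were well above background at every spot on all 7 arrays. For these, the log2 signal was averaged over a probe's spots and given relative to the array's 75th percentile, which is the scale of every level below. The standard deviation (SD) between fish was pooled over both feed groups, the 500 brightest probes were set aside, and the 200 probes of largest pooled SD were taken. Their SDs, from 1.17 to 5.01 log2 units with a median of 1.43, are thus a description of the choice, and the median over all 18016 probes was 0.37. The last members, A_05_P377592, A_05_P490457 and A_05_P417832, had an SD of 1.17 each, and the next probes outside the limit, A_05_P266656, A_05_P417702 and A_05_P485642, had 1.17, 1.17 and 1.17, so the limit falls on no gap.

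The proximal intestine of trout is the site where feed is digested and absorbed, and it holds absorptive cells, mucus cells, hormone cells, smooth muscle and resident immune cells. Tissue RNA mixes all of them, so fewer cells of a type and less RNA per cell cannot be told apart. Salmonid genomes carry many duplicated genes, because the ancestor of the family doubled its genome. A short array probe can therefore read more than 1 gene copy. None of the 199 different identifiers of the members matched the 72772 genes of the trout gene table used here, and no probe sequence is in the tables used here. Of the members, 74 carry the identifier of a sequence cluster, 29 that of a RefSeq mRNA, 84 another sequence accession and 13 the probe's own name. These shares were close to those of all 18016 probes for the RefSeq kind (14.5% against 13.7%) and the cluster kind (37.0% against 36.8%). The transcripts are therefore named by probe, no lists of pathway genes or cell type markers could be counted, and the labelled tissue could not be checked against its markers. A low level below is a low signal, since the match of each probe to trout sequence was not checked.

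The arrays detected between 41.7% and 49.0% of all probes at every spot. Slide 1 held control 1 and the 4 insect fish, and slide 2 held control 2 and control 3. Deviations of the controls can thus hold a difference between slides, also in the sets below, and those of the insect fish cannot. For insect 3 and insect 4 the listed dye is not cyanine 3, although every file holds 1 channel, and this conflict was not resolved.

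Among the members the range from the lowest to the highest fish was 14.3-fold in the median, against 2.16-fold over all probes. The mean level of the members was -1.45 in the median and ran from -3.93 to 3.17. All probes had -1.58 in the median, and the probes eligible for the choice, without the brightest, had -1.66. The choice itself left out the brightest probes and those not well above background on every array, so the middle place of the members is a description. The weakest fish of a member read 15.7 units of processed signal in the median, where all probes had 38.0, so low ends of the members lay nearer to background. The SD was 1.37 between control fish and 1.55 between insect fish in the median, and it was wider in controls for 88 of the 200 members, where this held for 60.1% of all probes. A control SD can hold a difference between slides and an insect SD cannot, and the part of slide in these values was not tested. For 14 members the control SD lay under the median control SD of all probes, 0.39, and for 2 members the insect SD lay under the corresponding 0.32. Members above these limits could still vary mainly in 1 feed group. A_05_P471302 had an SD of 0.46 between control and 2.66 between insect fish, and A_05_P364542 had 2.77 and 0.33.

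Large spread in one feed group went with large spread in the other. When 200 probes were taken by the SD of the insect fish alone, their SD between control fish, which that choice had not used, was 0.99 in the median against 0.39 for all probes eligible, and 117 of them (58.5%) lay in the highest 10% of control SDs. When 200 were taken by the controls alone, their SD between insect fish was 0.87 against 0.32, and 127 (63.5%) lay in the highest 10%. Of these lists, 151 and 108 probes were members. This is a description across probes, which share arrays and fish, and the control SDs can hold a difference between slides. The median level of the lists, -1.40 and -1.55, was near the -1.66 of the eligible probes.

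Single members spanned very different patterns. A_05_P454917 had the largest SD. Its level was -4.08, -2.48 and 10.3 in control 1, 2 and 3 and -1.89, -2.46, -3.38 and -2.29 in insect 1 to 4. Only control 3 was high, and the single spot of this probe there was flagged as non-uniform by the scanner software, so its spread rests on a spot of doubtful quality. A_05_P397167 behaved alike, at -2.62, -2.63 and -2.83 in the controls and -2.79, 4.44, -3.13 and -2.82 in the insect fish. Insect 2 alone was high, again at a single spot flagged as non-uniform. The other 8 of the 10 most variable members carried no such flag.

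A_05_P263874 read 0.02, -3.55 and -4.54 in the controls and -3.56, -2.74, 4.24 and -1.07 in the insect fish. A_05_P368112 read 0.93, -2.80 and -4.11 in the controls and 0.73, -1.92, 5.50 and 0.76 in the insect fish. A_05_P487332 read 2.06, -3.14 and -3.48 in the controls and 0.16, -4.22, 3.30 and -1.57 in the insect fish. In all 3, insect 3 was the highest fish and control 1 the highest control, and the feed groups overlapped widely. The range of these members was 442-fold, 779-fold and 184-fold. Their weakest fish read 7.58, 10.2 and 10.2 units of processed signal, under the members' median of 15.7, so these ranges rest on low ends near background.

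A_05_P455067 had -1.22, -4.91 and 0.87 in the controls against 2.23, -3.47, 1.99 and 1.5 in the insect fish, with control 2 and insect 2 low. A_05_P368227 had -2.96, 0.37 and 1.51 in the controls against -2.95, -4.94, 1.18 and 1.15, with control 1, insect 1 and insect 2 low. A_05_P364612 had 2.03, -2.30 and -3.49 against -2.76, 2.64, 2.90 and 0.28, with control 2, control 3 and insect 1 low. Each of these splits runs through both feed groups.

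Which fish stood out was counted by taking, for each member, the fish farthest from the mean of its own feed group. Insect 3 was that fish for 61 of 200 members (30.5%), against 16.5% of all 18016 probes. Control 1 was it for 32 members (16%, against 24.9%), insect 1 for 30 (15.0%, against 12.8%), insect 2 for 27 (13.5%, against 10.8%), control 3 for 25 (12.5%, against 15.8%), insect 4 for 21 (10.5%, against 9.15%) and control 2 for 4 (2.00%, against 10.1%). The direction also differed between fish. Insect 3 was high in 45 of its 61 members and low in 16, while insect 1 was low in 23 of 30 and insect 2 low in 19 of 27. Over all probes, insect 3 was high in 1251 and low in 1715 of 2966, insect 1 was low in 962 of 2301, and insect 2 was low in 1070 of 1953. Leaving out the 7 members with any flagged spot, the share of insect 3 was 29.5%.

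The members were then grouped by their deviations from the feed group means, with average linkage on the correlation at a distance limit of 0.5. This gave 11 sets, and the 5 largest held 157 of the 200 members. Sets formed on these values are descriptions, and a member's place in one is not tested.

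**Figure D1:**
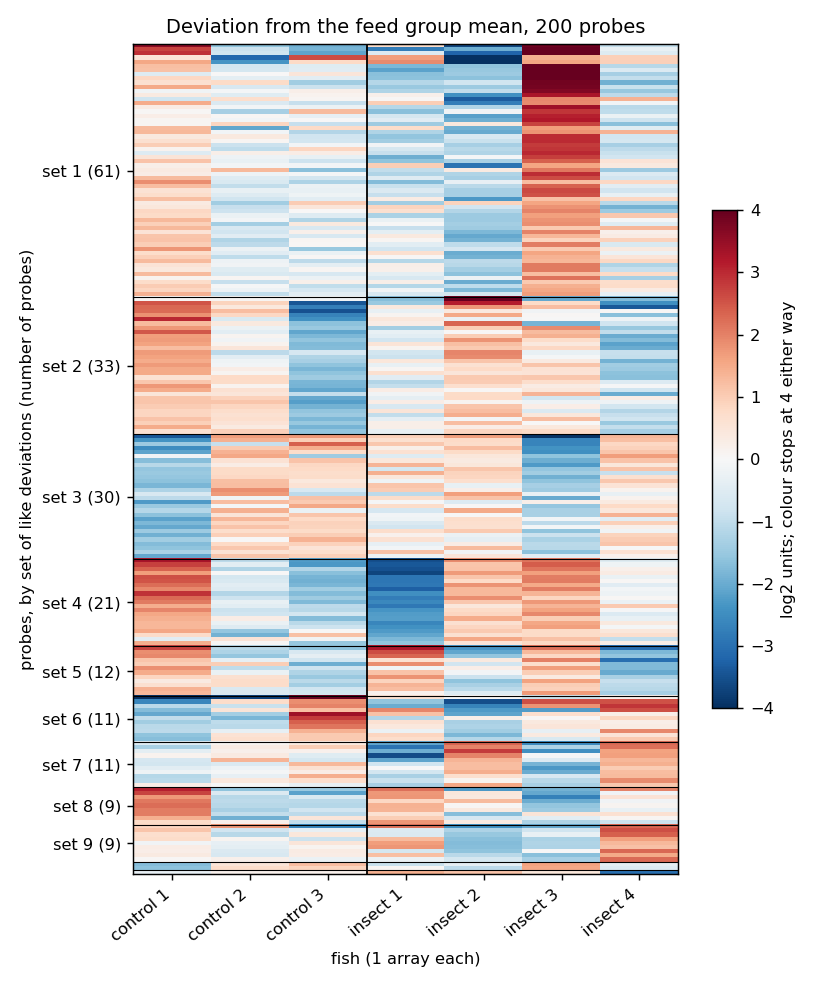
Each row is 1 of the 200 probes and each column 1 fish; colour gives the deviation from the mean of that fish's feed group in log2 units, with red above and blue below, and the vertical line parts control from insect fish. Horizontal lines part the sets, whose sizes are on the axis (the last 2 sets, of 2 and 1 probes, carry no label). Set 1 is red in insect 3, and set 3 is blue in control 1 and insect 3.

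Set 1, the largest with 61 members, was a set of transcripts high in insect 3. The level in insect 3 lay above that fish's group mean in all 61, by 2.07 log2 units in the median, and insect 3 was the highest of the 7 fish in 49. It was 6.82-fold above the median of the other 6 fish in the median member. Control 1 lay above its group mean in 57 of the 61, by 0.82, and insect 2 below in 58, by 1.36. The most typical members of the set were A_05_P428342, A_05_P431832 and A_05_P275714.

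A_05_P428342 read -3.50, -4.73 and -4.39 in the controls and -4.0, -4.39, -0.53 and -3.36 in the insect fish. A_05_P275714 read -3.93, -4.82 and -4.82 in the controls and -3.39, -4.13, -0.16 and -3.56 in the insect fish. In both, 6 fish lay within a narrow band and insect 3 far above it. These bands lay around -3.93, the lowest mean level of any member, so their narrowness and the height of insect 3 above them rest on low signals. A_05_P431832 had -3.09, -4.89 and -5.11 against -2.59, -3.41, 0.55 and -2.83, the same shape with a wider band.

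Set 2 held 33 members in which control 1 was high and control 3 low. Control 1 exceeded control 3 in all 33, by 8.91-fold in the median member. Among the insect fish, insect 2 lay above the group mean in 31 of 33 and insect 4 below in 31 of 33. A_05_P428707 read 4.69, 3.48 and 1.34 in the controls and 3.10, 3.81, 3.58 and 1.56 in the insect fish. A_05_P341897 read 0.58, -0.43 and -3.93 against 0.37, 1.75, 0.31 and -1.44. A_05_P370017 read 1.91, 0.28 and -4.01 against -2.22, 2.42, 0.04 and -3.18. Control 3 and insect 4, fish on different feeds and different slides, were the low ones in the first pair of probes, and insect 1 joined them in the third.

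Set 3 held 30 members that were low in control 1 and insect 3 together. Control 1 lay below its group mean in 30 of 30 and insect 3 in 29 of 30. The mean of the other 5 fish was 4.08-fold above the mean of these 2 in the median member, and in 25 of 30 every one of the 5 lay above both. A_05_P260444 read -4.78, -1.26 and -0.83 in the controls and -1.97, -0.98, -4.62 and -1.29 in the insect fish. A_05_P408242 read -4.23, -0.42 and -0.86 against -0.84, -0.70, -4.13 and -0.30. The 2 low fish differed from each other by less than 0.2 log2 units in both probes, far less than their distance to the rest. The weakest fish of these probes read 8.39 and 11.8 units of processed signal, under the members' median of 15.7, so their low levels lay near background.

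Set 4, with 21 members, was the most uniform of the large sets, with a mean correlation of 0.87 between its members, where sets 1, 2, 3 and 5 had 0.69, 0.75, 0.71 and 0.78. Insect 2 and insect 3 lay above and insect 1 below the group mean in all 21, and control 1 lay above control 2 and control 3 in 19. The mean of insect 2 and insect 3 was 13.8-fold above insect 1 in the median member, and control 1 was 7.31-fold above the mean of the other controls. A_05_P449992 read -1.42, -3.85 and -4.72 in the controls and -3.65, 0.90, 1.66 and -0.49 in the insect fish. A_05_P292593 read -0.86, -2.72 and -3.02 against -3.02, 0.27, 1.06 and -0.66. A_05_P270829 read 2.79, -0.78 and -0.73 against -0.92, 3.70, 4.70 and 2.77. In each, insect 1 sat with control 2 and control 3, and the remaining 4 fish of both feeds lay above them. Outside the members, 229 of the other probes (1.29%) had deviations that correlated above 0.9 with the set's mean profile, against 1.12%, 1.27%, 4.77% and 0.595% for sets 1, 2, 3 and 5.

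Set 5 held 12 members in which control 1, insect 1 and insect 3 were high. A_05_P264529 read 2.17, -1.63 and -2.14 in the controls and 3.24, -2.36, 2.21 and -3.05 in the insect fish. A_05_P251599 read 0.06, -1.88 and -2.12 against -0.02, -2.34, -0.33 and -2.37. A_05_P408782 read -1.50, -3.24 and -4.18 against -1.30, -2.56, -1.44 and -4.45. The mean of the 3 high fish was 4.11-fold above that of the other 4 in the median member, and the sides did not overlap in 7 of 12.

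**Figure D2:**
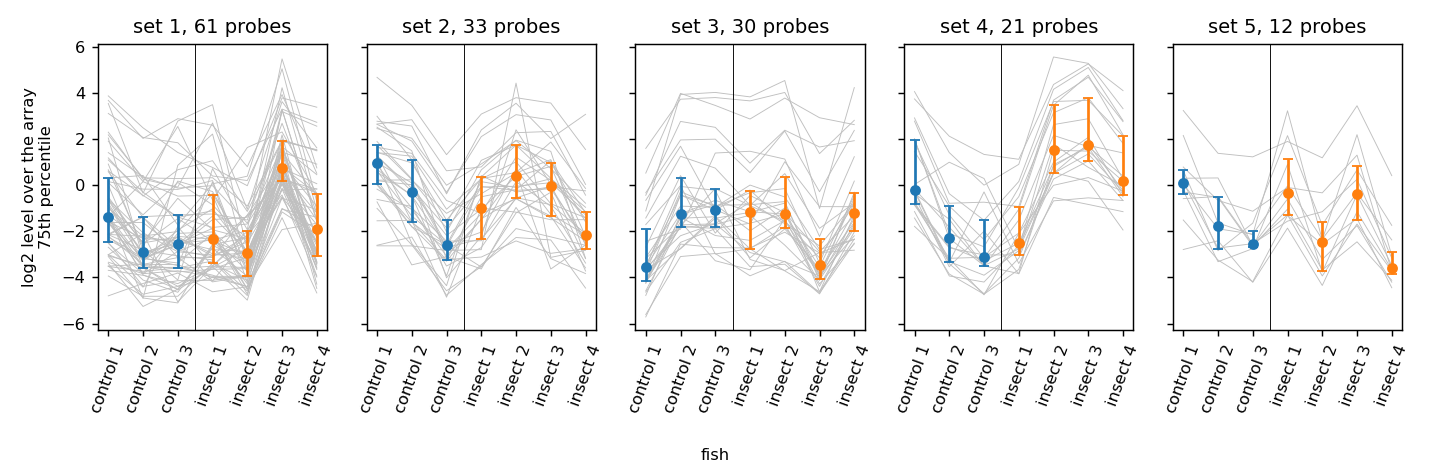
Log2 levels over the array's 75th percentile in each fish for the 5 largest sets. Grey lines are single probes, joined only to show that they belong together; points are medians over the set's probes and bars run from the lower to the upper quartile, in blue for control and orange for insect fish. In set 4 the medians of control 2, control 3 and insect 1 are -2.30, -3.12 and -2.51, below those of the other 4 fish.

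The smaller sets picked out other fish. Set 7, with 11 members, was high in insect 2 and insect 4, whose mean lay 6.62-fold above that of the other 5 fish, with no overlap in 10 of 11. In set 9, with 9 members, insect 4 exceeded the mean of insect 2 and insect 3 by 8.69-fold in the median. Set 6, with 11 members, was high in control 3, which was the highest of the 7 fish in 7. Set 8, with 9 members, was high in control 1 and insect 1.

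Across all members, the deviations of several pairs of fish on different feeds went together. Control 1 and insect 3 had r = 0.43 and rho = 0.35 over 200 probes, and control 3 and insect 4 had r = 0.39 and rho = 0.44, so which pair is highest depends on the measure. Control 2 and insect 2 came close, with r = 0.34 and rho = 0.34. The 12 pairs of fish on different feeds ran from r = -0.38 to 0.43. Over all 18016 probes control 1 and insect 3 had r = 0.51, control 3 and insect 4 had 0.17, and control 2 and insect 2 had 0.17. These values are across probes, and deviations within a group sum to zero, which ties the pairs together. Control 1 and insect 3 were both measured on slide 1, while control 3 and insect 4 were on different slides. Insect 1, insect 2 and insect 4 also shared slide 1 with control 1, at r = -0.17, -0.03 and -0.38 over the members. All insect fish lay on slide 1, so their deviations from their own mean hold no difference between slides. The part of slide in these correlations was not tested.

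Some members took 2 separate levels. A member was counted so when the widest gap between neighbouring fish was more than 2 times the range on either side of it and at least 2 fish lay on each side. This held for 23 members (11.5%) and for 2.59% of all probes. The choice by a large SD within feeds favours wide gaps between fish of a feed and nearly bars a division along the feeds, so these shares describe the members and are no test. The gap was 6.07-fold in the median and ran from 1.56 to 4.85 log2 units. In 0 of the 23 did the 2 levels follow the feeds, as they did in 19 of the 467 such probes of the table (4.07%), and nothing is read from that 0. They followed 15 different divisions of the fish.

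The division met most often, in 6 members of 6 different identifiers, put control 1 and insect 3 at the low level and the other 5 fish at the high one. A_05_P411852 showed it most widely, with -1.11 and -1.01 in the 2 low fish and 3.95, 4.04, 3.85, 4.56 and 4.25 in control 2, control 3, insect 1, insect 2 and insect 4. In the 6 probes, the gap between the levels was 4.39-fold to 28.9-fold, while the 2 low fish differed by at most 0.39 log2 units. Of these, A_05_P411852 read 103 and A_05_P331872 read 19.9 units of processed signal in the weakest fish. A_05_P408242 and A_05_P260444 read 11.8 and 8.39, under the members' median of 15.7, so their low levels lay near background. A_05_P471302 followed another division, with 2.79 and 2.73 in insect 2 and insect 4 and between -2.41 and -1.51 in the other 5 fish. A_05_P427503 had 0.80, 1.07 and 0.87 in control 1, insect 1 and insect 4 and between -3.94 and -3.01 elsewhere. A_05_P365142 had 1.41, 1.48, 1.14 and 1.25 in control 3, insect 1, insect 2 and insect 4 against -2.43, -1.90 and -2.22 in the other 3.

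**Figure D3:**
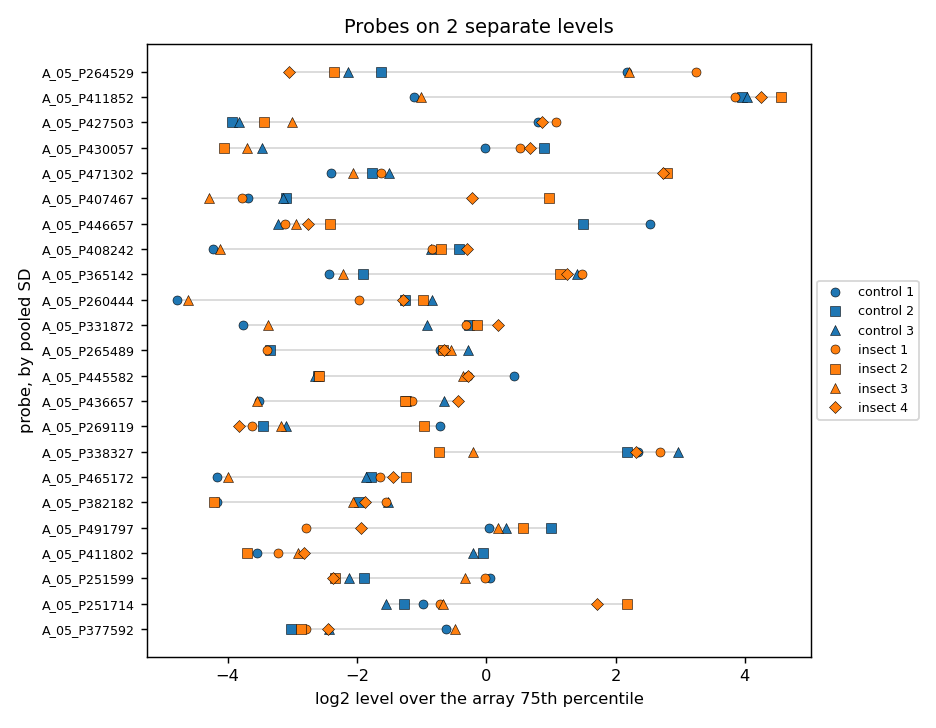
Each row is 1 of the 23 probes on 2 separate levels, sorted by pooled SD, and each symbol the log2 level of 1 fish over the array's 75th percentile, in blue for control and orange for insect fish. In every row symbols of both colours share at least 1 of the 2 levels, so no row divides the fish by feed.

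A further 20 members (10.0%, against 1.51% of all probes) had 1 fish apart from 6 that lay close together, by the same rule on the gap. Insect 3 alone was high in 14 of these. Of those 14, 5 have several spots, and in 3 of the 5 the spots agreed to within an SD of 0.5. In 4 of the 20 members 1 fish alone was low. With spots flagged as outliers left out, the count of members with 1 fish apart fell from 20 to 15.

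Members with several spots show the noise within an array. The spots of an array share the labelling, hybridisation and scan as well as the RNA of 1 fish, so array and fish cannot be told apart by them. Of the 200 members, 166 have 1 spot, 32 have 2 and 2 have 20. In the 34 with several spots, the SD between spots of an array was 0.26 log2 units in the median, against an SD between fish of 1.47. For all 3938 probes with several spots these values were 0.25 and 0.34. The SD between fish exceeded 2 times the SD between spots in 32 of 34 members (94.1%), against 28.0% of all such probes. The deviations computed from separate spots correlated at 0.98 in the median member and at 0.70 over all such probes. The members were picked for a large fish SD of these same spot averages, so the shares and correlations are a description.

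A_05_P249269, with 20 spots, read 3.28 in insect 3 and between -3.07 and -0.62 in the other 6 fish. Its 20 spots lay between 3.18 and 3.39 on insect 3, and none of its spots on any other array exceeded -0.33. A_05_P248874, also with 20 spots, was lowest in control 3, at -3.50, and its spots there ranged from -5.04 to -2.94, while those of insect 2 ranged from -0.79 to -0.28. The spot SD was 0.46 on control 3 and 0.11 on insect 2. Over all probes with several spots its median was 0.25 on control 2 and 0.26 on control 3, the arrays of slide 2. On slide 1 it ran from 0.10 on insect 3 to 0.15 on control 1, with 0.11 on insect 2. In the members it was 0.36 on control 2, 0.15 on control 3 and 0.11 to 0.13 on slide 1. Spots thus agreed less on slide 2, which held only controls, and the part of this in the control SDs was not tested. A_05_P343142 read 3.66 and 3.46 at its 2 spots on control 1 and -2.76 and -2.81 on insect 2. A_05_P331872, one of the 6 probes low in control 1 and insect 3, read -3.71 and -3.82 at its spots on control 1, -3.11 and -3.64 on insect 3, and between -0.93 and 0.34 at every spot elsewhere.

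In 2 members the spots did not agree. A_05_P300192 read -3.08 at one spot and 5.10 at the other on insect 3, and A_05_P256984 read -1.91 and 2.78 there. In both, 1 spot was flagged as non-uniform. The lower spots lay near the other fish, whose spots read -4.24 to -2.72 for A_05_P300192 and -3.22 to -1.89 for A_05_P256984. In all, 5 members had a spot flagged as non-uniform (0.265% of their spot values, against 0.0103% of all spot values of the table), and in all 5 the flag was on the array of the largest deviation, 3 times on insect 3. Flags for spots that differ from the other spots of their probe occurred in 2 members, the probes with 20 spots.

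**Figure D4:**
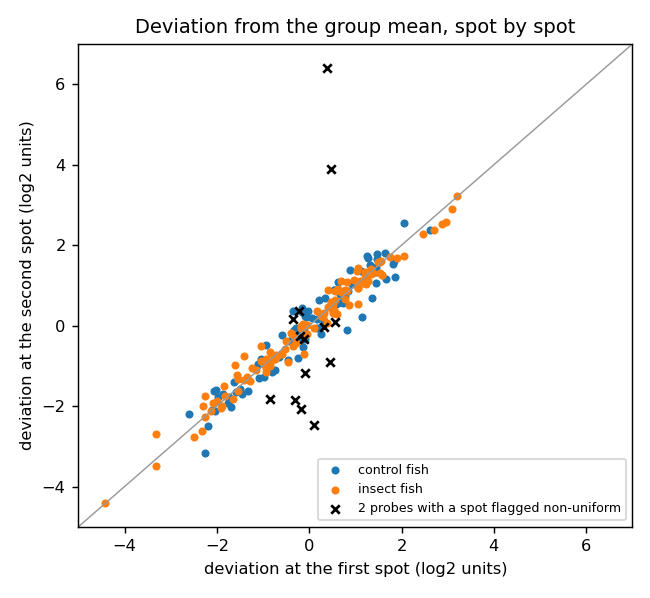
For the 32 members with 2 spots, the deviation from the feed group mean at the first spot (horizontal) against that at the second (vertical), both in log2 units, 1 point per fish; the grey line marks equal values. The points follow the line, except those of A_05_P300192 and A_05_P256984 (crosses), each with 1 spot on insect 3 flagged as non-uniform.

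Around 269 member spots, the spots of other probes within 2 rows and columns deviated by 0.011 log2 units in the same direction in the median (quartiles -0.13 and 0.13), where the member spots themselves deviated by 2.11. In 6 cases the median of the neighbours deviated by more than 0.5 in the direction of the member spot.

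A second probe of the same identifier is a separate probe whose values did not enter the member's own SD, and its sequence was not checked. Such probes, not members themselves, existed for 14 members, in 20 pairs. Their deviations correlated with those of the member at 0.44 in the median, from -0.64 to 0.98, and above 0.9 in 6 of 20 pairs (30.0%). Over all 1727 pairs of the table the median was 0.39 and 8.92% lay above 0.9. Those pairs were not limited by membership, while the second probes in the 20 pairs had missed the choice, so the shares are a description. In 5 of the 20 pairs (25.0%) the second probe's SD was in the highest 10% of all probes.

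The second probes fell on both sides. A_05_P414822 read 0.69, -0.44 and -2.64 in the controls and -0.07, -0.04, 0.12 and -1.28 in the insect fish. Its second probe, A_05_P407272, read -0.72, -1.18 and -3.57 in the controls and -1.41, -1.77, -1.23 and -2.77 in the insect fish, with a correlation of deviations of 0.98. By contrast A_05_P273099, the second probe of A_05_P411852, read -0.85, -1.17 and -1.66 in the controls and -1.54, -2.33, -0.71 and -0.86 in the insect fish, and showed no 2 levels (correlation -0.64). The only members that share an identifier with each other, A_05_P390627 and A_05_P377032, correlated at 0.97. The first read 3.89, 2.5 and 1.43 in the controls and 0.78, -0.01, 3.80 and 3.40 in the insect fish, and the second 3.13, 2.08 and 1.85 in the controls and 0.41, 0.21, 3.32 and 2.74 in the insect fish. Insect 1 and insect 2 were low in both.

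The feed comparison set the insect fish against the control fish, which differed in guar gum and tank as well as in protein. None of the 200 members passed an adjusted p under 0.05 (limma over all 18016 probes, Benjamini-Hochberg), nor did any other probe of the table (background 0%). The smallest adjusted p of a member was 0.430. At an unadjusted p under 0.05 there were 16 members (8.00%), where the background was 9.5%: 14 were higher with insect feed (7%, background 5.2%) and 2 lower (1.00%, background 4.3%). The split depended on single fish: without control 3, 5 of 13 such members were higher, where 8.61% of all probes had such a p. The direction of all probes was not counted in that setting. A member's large SD between fish, by which it was chosen, enters the error of this test. limma draws that error part of the way toward the level of all probes. At an equal difference of means, members still pass less easily than probes of smaller SD. The groups of fish did not overlap in 4 members (2.00%, background 10.3%), all 4 higher with insect feed (background 4.82% higher and 5.44% lower).

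The differences of means were large but uncertain. The mean differed at least 2-fold in 72 members (36.0%, background 2.36%), 59 of them higher with insect feed (background 1.75%) and 13 lower (background 0.611%). The mean was higher with insect feed in 129 of 200 members (64.5%, against 50.9% of all probes). It was higher in 101 within slide 1 or with slide as a fixed block, and in 108 without insect 3. The lean to one direction thus depended on the setting. The 50.9% of all probes is from the full comparison, and their share in these other settings was not counted. In the full comparison the difference was 0.38 log2 units in the median, where all probes had 0.01. The limma standard error of a member's difference was 0.81 in the median, against 0.28 over all probes. It is drawn toward the level of all probes, and the members' own SDs, 1.43 in the median, would give larger errors. These counts therefore come with errors of nearly the size of a 2-fold change even after that step.

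A_05_P484657, of set 4, had the smallest p. It read -1.78, -3.18 and -4.75 in the controls and -2.08, 0.00, 0.34 and -0.25 in the insect fish. Insect 1 lay within the range of the controls. The difference was 2.74 ± 0.72 log2 units (SE, 7 arrays; limma adjusted p = 0.430), and its 2 spots differed by at most 0.37 on any array. A_05_P252744, of set 1, read -2.68, -4.11 and -4.64 against -2.57, -2.26, 1.43 and -0.42, a difference of 2.86 ± 0.89 (SE; limma adjusted p = 0.461). Its groups did not overlap, by a margin of 0.11 between control 1 and insect 1.

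Among members lower with insect feed, A_05_P446657 read 2.53, 1.5 and -3.23 in the controls and -3.11, -2.41, -2.95 and -2.75 in the insect fish. All 4 insect fish and control 3 shared a low level, and control 1 and control 2 were high. The difference was -3.08 ± 1.1 (SE; limma adjusted p = 0.486). A_05_P411802 read -3.54, -0.05 and -0.21 against -3.22, -3.70, -2.92 and -2.81, with control 1 at the level of the insect fish and the controls of slide 2 above. Its difference was -1.90 ± 0.74 (SE; limma adjusted p = 0.501).

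Slide and feed overlap, and control 1 is the only control on slide 1. Within slide 1, where 1 control assumed to vary like the others is set against 4 insect fish, A_05_P484657 differed by 1.28 and A_05_P252744 by 1.73 log2 units. A_05_P411802 turned to 0.38. A_05_P446657 differed by -5.34 there, where only the 4 insect fish show a spread within a feed. The same difference with slide as a fixed block had an SE of 1.34 and did not pass (limma adjusted p = 0.396). Without control 3 it was -4.82 (limma adjusted p = 0.00647), and without control 1 it was -1.95 (limma adjusted p = 0.416). A_05_P411802 differed by -3.03 without control 1 (limma adjusted p = 0.0479). Each low adjusted p came only where the control at the insect level for that probe was left out, so none is counted as a call. With normexp background correction A_05_P484657 differed by 1.38, A_05_P252744 by 1.46 and A_05_P411802 by -1.0 log2 units, with no adjusted p under 0.05.

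Set 4 supplied 9 of the 16 members at an unadjusted p under 0.05. The count of set 4 in other settings follows, with the share of all probes in brackets (9.5% in the full comparison). It was 1 without control 3 (8.61%), 2 without control 2 (6.42%), 3 without insect 2 (7.31%) and 5 without insect 3 (11.1%). It was 6 without insect 4 (6.28%), 16 without control 1 (14.8%) and 18 without insect 1 (6.63%). With slide as a random block (6.64%) or with the replicate block (3.66%) it was 1. The means of set 4 were higher with insect feed in 20 of 21 members, by 2.47 log2 units in the median. Within slide 1 the median difference was 0.14 and none of the 21 had an unadjusted p under 0.05; control 1 was high in this set. With slide as a fixed block the median was also 0.14, without control 1 it was 3.34, without control 3 it was 1.60, and with normexp background correction it was 1.58. Of the other 179 members, 7 had an unadjusted p under 0.05, and their difference was 0.28 in the median. Slide 2 held controls only, so for this set slide, feed and fish cannot be told apart.

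**Figure D5:**
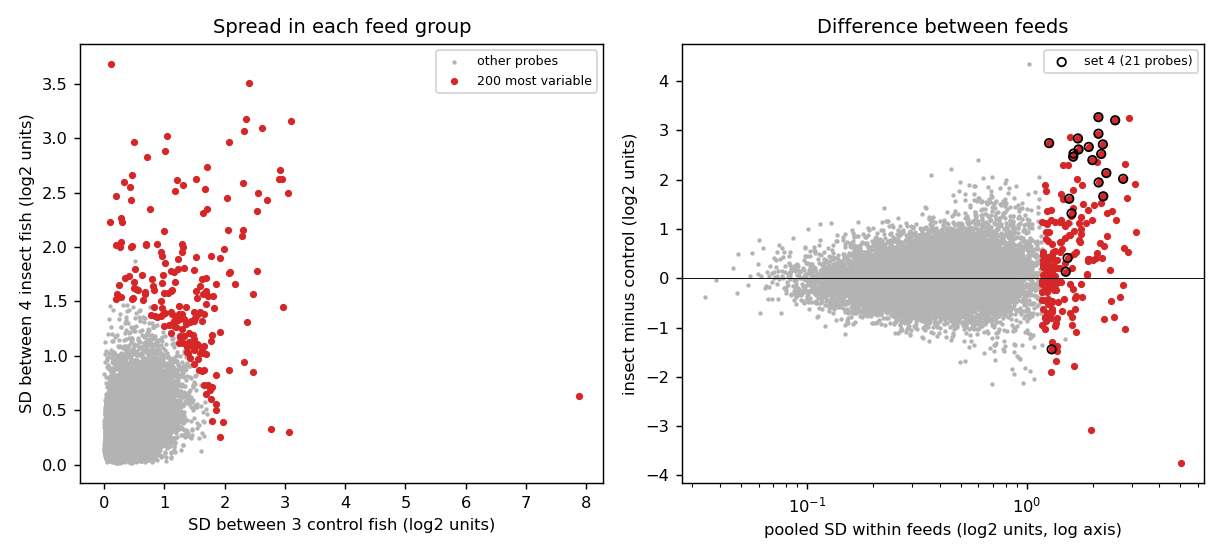
Left, the SD between the 3 control fish against that between the 4 insect fish, in log2 units, for all 18016 probes (grey) and the 200 members (red), which fill the outer rim because the pooled SD chose them. Right, the difference insect minus control in log2 units against the pooled SD on a log axis; open circles mark set 4, of which 20 of 21 lie above zero.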

How the data were processed

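Per the file headers, each deposited array file holds spot intensity values on a linear scale from 1 channel, with no scaling between arrays; the submitters' processing notes name Agilent Feature Extraction 12.1.1.1 as the software. The labels' protocols state that 50 ng of RNA was labelled with cyanine 3. The deposited series table equals the background-subtracted intensity of the array files at all 62976 spots, so its scale and direction are known. The median of its column was 5.69, 5.43 and 3.82 on control 1 to 3, then 3.08, 3.98, 4.05 and 3.05 on insect 1 to 4. No identifier could be matched to a gene, so the planned gene and marker lists were not run. Log2 processed signals were averaged over spots and scaled by the 75th percentile over the 18016 probes above background at every spot on all arrays. Spots flagged as outliers were kept, as the choice of members does, and leaving them out is among the alternatives.

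Feeds were compared with limma 3.58.1 in R 4.3.3 (lmFit and eBayes, feed as the only term), adjusted by Benjamini-Hochberg over these probes at 0.05, after a test on simulated data. The standard errors given are those after eBayes, which draws each probe's variance toward that of all probes. With 1 tank per feed, p-values reflect how these fish differ and nothing wider. The members, sets and tests were chosen with earlier results of these data known, and the rules for 2 levels and for 1 fish apart after these values were seen. Named probes were the 10 of largest SD, the 3 most typical of each of the 5 largest sets, the 2 of smallest p in each direction, those at the limit and those sharing an identifier. Probes with several or flagged spots and further probes on 2 levels were added as examples after their values were seen. The number of arrays limits the precision.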

Additional observations from a re-analysis of the deposited data

Results flagged for a closer look

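Among the 4 insect fish, 1 fish lay far from the other 3 in 4 of the 35 named probes. A_05_P397167 read 4.44 in insect 2, at a single spot flagged as non-uniform. A_05_P455067 read -3.47 in insect 2. A_05_P411852 read -1.01 and A_05_P408242 read -4.13 in insect 3, with control 1 at the same low level in both. Such a gap occurred in 23 of the 200 members (11.5%) and in 5.42% of all probes, and chance flags about 1 in 20 groups. The members were chosen for wide spread, and the part of spot flags, slide and the listed dye of insect 3 in these values was not tested.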

How the results depend on the processing

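The settings without both control 1 and insect 3 and without members that carry a flagged spot were added after seeing the data. The count of 16 members at an unadjusted p under 0.05 stayed within 1.5 times in 15 of 23 other settings. The share of all probes at that p, 9.5% in the full comparison, moved as well and stands in brackets. The members numbered 25 with normexp background correction (14.1%), 5 with slide as a random block (6.64%) and 39 with array weights (18.4%). They numbered 42 when control 1 and insect 3 were both left out (15.5%). When 1 array was left out, they ran from 5 without control 2 (6.42%) to 37 without control 1 (14.8%). Without insect 1 they numbered 33 (6.63%), and without insect 3 they numbered 29 (11.1%). The causes were not tested. With limma 0 members passed the adjusted threshold, except 1 within slide 1 and 0 to 1 with 1 array left out. The difference of A_05_P411802 turned from -1.90 to 0.38 with slide as a fixed block and within slide 1. Normexp, run on median signals with an offset of 50, kept 116 of the 200 members and moved the median feed difference of all probes by 0.18 log2 units. The other scalings and corrections kept 171 to 195, and leaving out 1 array kept 146 (without insect 3) to 182. Taking the first 100 or 400 probes leaves membership as it is by construction. The share of members in which insect 3 deviated most ran from 28.5% to 38.5%, and among the first 400 probes by pooled SD the share was 26.0%. The number of second probes correlating above 0.9 was 6, but 3 with normexp, 3 with the series table and 3 (without insect 3) to 7 with 1 array left out. The members with fish SD over 2 times spot SD numbered 30 to 32. With the replicate block 19 members had an unadjusted p under 0.05, where 3.66% of all probes did, and 0 passed the adjusted threshold. Over all 18016 probes same-numbered fish deviated at correlations of -0.34, 0.17 and -0.39, and over the members at -0.17, 0.34 and -0.25. Deviations within a group sum to zero, so these few values cannot decide whether the numbers pair the fish.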
